A study of Mus musculus with 64 samples.

Results

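Clone H is a clonal line of mouse pancreatic tumor cells, and its response to fibroblasts was read from 8 of the 64 RNA-seq libraries of the study: the 4 libraries of clone H cocultured with fibroblasts and the 4 of clone H grown in monoculture. The libraries were taken by their names, and clone H was picked from the 8 lines with earlier results of these data known. The study sequenced 8 lines in both cultures with 4 libraries each: the clones E, H, K, M, N, T and V and the line KPC1. Clones E, H and V are its group 1 and clones K, M, N and T its group 2, and KPC1 is in neither group. The clones came from pancreatic tumors of KPC mice, a model whose alleles include Trp53+/R172H and Pdx1-Cre, a recombinase driven in pancreatic progenitors, on a background labelled C57BL/6 mixed, so these alleles are shared by tumor cells of both cultures. In coculture, tumor cells and fibroblasts shared a dish for 48 h and GFP-labelled tumor cells were then sorted. The sources used here do not say which fibroblasts were used, or whether monocultures were sorted, so sorting and coculture cannot be told apart. Clone H is 1 clone, and its 4 libraries per culture are not stated to be separate cultures. The p-values rest on the spread between libraries within the 16 groups of line and culture, fitted together, and this spread may be technical.

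Interferons are secreted signals of infection that bind receptors at the cell surface. The receptors activate a transcription factor complex, of which Irf9 is a part, that enters the nucleus and switches on interferon-stimulated genes, among them sensors of viral RNA, antiviral effectors and genes of antigen presentation. The integrated stress response is a separate program in which amino acid shortage, a stressed endoplasmic reticulum or other insults slow protein synthesis and raise the transcription factor Atf4, which switches on amino acid transporters, amino acid synthesis enzymes and Ddit3. Both programs have been described in pancreatic tumors, where tumor cells grow in a dense stroma made by fibroblasts.

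The clone H libraries held between 12994330 and 19055340 counts in monoculture and between 17210490 and 19007467 in coculture, within the range of all 64 libraries (11178721 to 21333683). The epithelial keratin genes Krt18 and Krt19 were expressed, while the epithelial adhesion gene Epcam was at or near 0 in every clone H library. The fibroblast genes Dcn, Fap, Postn and Thy1, summed, were at 0 to 0.0833 CPM (counts scaled for library size and composition) in clone H monoculture and at 30.9, 65.6, 74.2 and 96.5 CPM in coculture replicates 1 to 4. The other lines ranged from 14.6 to 155 CPM in coculture, so every clone H coculture library carried transcripts of these genes at a level seen in the other lines. In bulk libraries, fibroblast RNA and a change within tumor cells cannot be told apart, and a gene that fibroblasts express can rise for either reason. The other marker sums were 19.5 to 57.5 CPM in coculture against 2.93 to 6.05 in monoculture for the immune list, where Ptprc, Csf1r and Lyz2 were at or near 0 and Cd68 alone was high enough to be tested, 5.11 to 12.2 against 13.8 to 18 for endothelial and mural markers, 1887 to 3176 against 3237 to 3568 for ductal and epithelial genes and 1.19 to 1.91 against 1.95 to 3.46 for acinar and endocrine markers.

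Coculture replicate 1 stood apart from the others. Among the 1578 genes called in the response of clone H, it was the coculture library nearest to the monoculture mean for 1159 (73.5%), against 7.67% to 10.2% for each of the other three. It also had the lowest fibroblast marker sum, as replicate 1 did in 6 of the 8 lines. All results below include it, and the counts without it are given where they moved by more than 1.5 times.

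In the response of clone H, 818 of 14134 genes tested rose (5.79%) and 760 fell (5.38%), called at a Benjamini-Hochberg adjusted p below 0.1 with at least a 2-fold change in edgeR's quasi-likelihood test. Without the condition on fold, 3027 genes were higher (21.4%) and 3188 lower (22.6%). Of the 1578 genes called, 1269 had 4 coculture values that did not overlap the 4 monoculture values. Genes were called on these same libraries, so this separation goes with the call and adds no support to it. Of the 818 that rose, 535 were below 1 CPM on average in monoculture. Across genes, the response of clone H correlated with the mean response of the other lines at r = 0.776, a description over 14134 genes that are not independent. Of single lines it was closest to KPC1 (r = 0.772) and clone V (r = 0.761) and furthest from clone M (r = 0.531).

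The comparison of clone H with the mean response of the other 7 lines asks which part of its response was its own. The response was higher in clone H for 219 genes (1.55%) and lower for 388 (2.75%), a total of 607 of 14134 (4.29%). The same count, taken for each other line against its own 7 others, was 311 for clone N (2.2%), 745 for E (5.27%), 817 for KPC1 (5.78%), 839 for M (5.94%), 850 for T (6.01%), 1138 for K (8.05%) and 1252 for V (8.86%), so clone H was the second lowest of the 8 lines. Set against single lines, the response of clone H differed in 139 genes from KPC1 (0.983%), 414 from V (2.93%), 704 from N (4.98%), 1274 from T (9.01%), 1368 from K (9.68%), 1413 from E (10%) and 1561 from M (11%). KPC1 and clone V were again the nearest, although V is in group 1 and KPC1 in neither group.

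**Figure D1:**
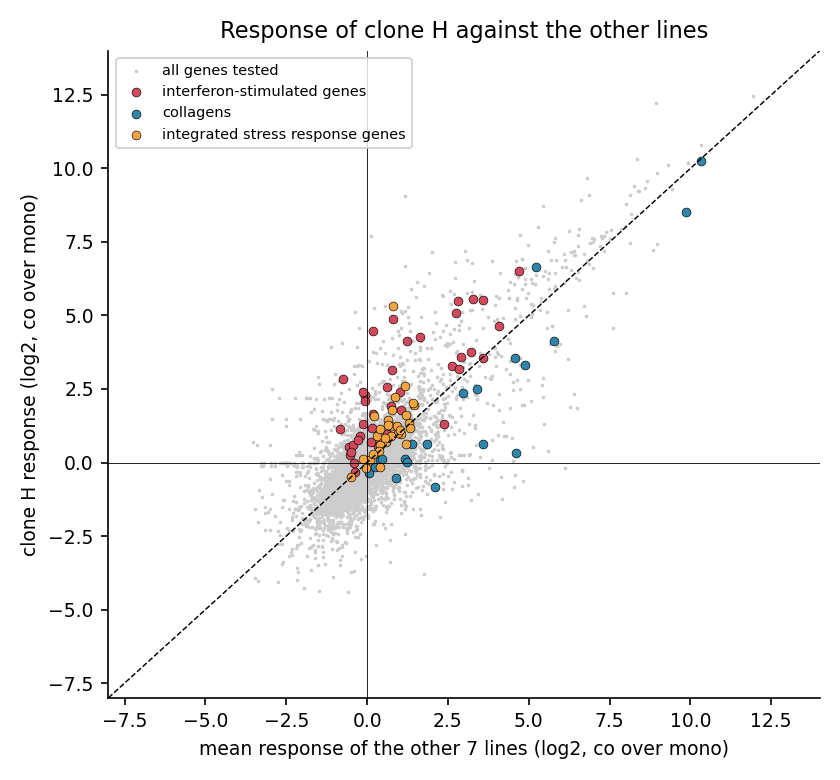
Response of each of the 14134 genes tested in clone H (vertical axis, log2 of coculture over monoculture) against the mean response of the other 7 lines (horizontal axis, log2). Gray points are all genes, colored points the members of 3 gene lists, and the dashed line marks equal responses. Interferon-stimulated genes lie mostly above the line, with a median of 2.36 in clone H against 0.62 in the mean of the other lines, and collagens mostly below it, with medians of 0.62 and 2.53.

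Among the 39 gene lists, interferon-stimulated genes had the most members with a higher response in clone H. Of 40 tested, 29 rose and none fell, where 5.79% and 5.38% of all genes tested did. The median response was 2.36 on the log2 scale, against 0.62 for the mean of the other lines and -0.01 over all genes in clone H. The response was higher in clone H than in the mean of the others for 21 of the 40 and lower for Ifi27 alone, where 1.55% and 2.75% of all genes were. It lay above each of the other 7 lines for 18 and below each for 0. Over all 14134 genes tested, 2068 lay outside that range in either direction. Without coculture replicate 4 the number of higher genes was 14. In the other lines between 7 (M) and 23 (K) of the 40 rose, and the medians were positive in all of them, from 0.14 in clone T to 1.65 in clone K.

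Ifih1, a sensor of double-stranded RNA (ENSMUSG00000026896, chr2:62595798-62646255, GRCm38), had the largest higher difference among genes that reached 5 CPM and responded outside the range of the other lines. It stood at 0.504, 0, 0.216 and 0.55 CPM in monoculture replicates 1 to 4 and at 2.84, 7.04, 10.1 and 9.81 CPM in coculture replicates 1 to 4. The lowest coculture value was over the highest monoculture value, and replicate 1 was the lowest of the coculture values. The log2 fold change was 4.46 ± 0.41 (SE, adjusted p = 6.76e-12), and the response was 4.28 ± 0.43 higher than the mean of the others (adjusted p = 3.42e-10). The other lines started at 1.7 to 14.9 CPM and ended at 4.02 to 16.3, so clone H rose from below all of them to a level within their range.

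Irf9, a DNA-binding factor of the interferon pathway (chr14:55603571-55610030), was the only gene with at least 5 CPM that changed in clone H alone: called in clone H, with a response above each of the other 7 lines in 7 pairwise tests and called in no other line in that direction. It was at 19.1, 20.3, 17.8 and 20.04 CPM in monoculture and at 26.2, 37.5, 53.3 and 56.1 CPM in coculture. No coculture value reached down to the monoculture range, although replicate 1 came close. It rose 2.24-fold (log2 1.16 ± 0.15 SE, adjusted p = 2.43e-08), by 1.02 ± 0.16 more than the mean of the others (adjusted p = 5.41e-06). The nearest line was clone K, where Irf9 went from 35.8 to 57.7 CPM (log2 0.69, adjusted p = 0.000316), a rise that missed the call by its fold alone, and the pairwise test closest to the threshold had an adjusted p of 0.095.

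Changes in clone H alone were few: 3 of the 14134 genes rose by this definition (0.0212%) and 0 fell (0%). Without coculture replicate 1 the numbers were 5 and 1, and without replicate 3 or 4 of the coculture 2 rose. Beside Irf9 the 3 were Enpp4, an ectonucleotidase family member, and Kank1, a regulator of the actin skeleton, both below the level set for named genes and named here after their values were seen. Enpp4 went from 0.296 ± 0.0812 to 3.24 ± 0.919 CPM (SD, n = 4 each) while the other lines started at 2.16 to 18.8 CPM. Kank1 went from 0.28 ± 0.12 to 1.14 ± 0.351 CPM while the others started at 3.65 to 15.4 CPM. Both were lower in clone H monoculture than in any other line and stayed below all of them in coculture.

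Antiviral effectors and regulators moved alongside. Ifit1, which binds viral RNA, rose from 0.63, 1.08, 0.757 and 1.10 CPM to 5.31, 12.5, 25.5 and 44.5 CPM (24.7-fold, adjusted p = 4.93e-11). Usp18, which removes Isg15 from proteins and dampens the receptor, rose from 0.063, 0.25, 0.108 and 0.244 CPM to 2.84, 4.41, 9.01 and 13.7 CPM (log2 5.48 ± 0.55 SE, adjusted p = 4.93e-11). Bst2, or tetherin, which holds virus particles at the membrane, rose from 34.6, 39.4, 36.3 and 23.4 CPM to 61.1, 109, 137 and 158 CPM (3.49-fold, adjusted p = 1.71e-10). In all 3 the coculture libraries kept the order 1, 2, 3 and 4 from low to high, and the groups did not overlap. Ifit1 rose in all 7 other lines as well, to 2.27 to 10.7 CPM on average, and its difference was not called (adjusted p = 0.964), where clone V at 0 in monoculture leaves the mean of the others poorly defined. The difference was called for Usp18 (2.67 ± 0.82, adjusted p = 0.0282) and stayed under 2-fold for Bst2 (0.74 ± 0.20), which rose further in clone K (log2 2.08, against 1.80 in clone H).

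Other members with a called difference included Gbp3, an interferon-induced GTPase, at 0.216 to 0.75 CPM in monoculture and 2.23, 4.89, 11.2 and 14.9 CPM in coculture (difference 2.90 ± 0.51, adjusted p = 7.46e-05). Irf7, the regulator that amplifies interferon production, went from 0.487 to 0.856 CPM in monoculture to 3.32, 8.05, 18 and 23 CPM (difference 2.62 ± 0.52, adjusted p = 0.000397). Mx2, a dynamin-like antiviral GTPase, went from 0.693 to 1.16 CPM in monoculture to 1.93, 4.83, 10.5 and 13.4 CPM (difference 2.38 ± 0.45, adjusted p = 0.000225). All 3 had the same order of libraries, with replicate 1 lowest and replicate 4 highest. The nearest single lines were clone V for Irf7 (log2 3.71, against 4.27 in clone H) and clone K for Mx2 (2.83, against 3.15). Xaf1, a pro-apoptotic interferon target, was among the 10 largest rises of genes already expressed in monoculture, from 5.29, 7.33, 3.95 and 6.91 CPM to 11.3, 17.9, 41.7 and 52.7 CPM (difference 2.54 ± 0.37, adjusted p = 1.63e-06), whereas it fell in clones E and T and rose in K and KPC1.

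**Figure D2:**
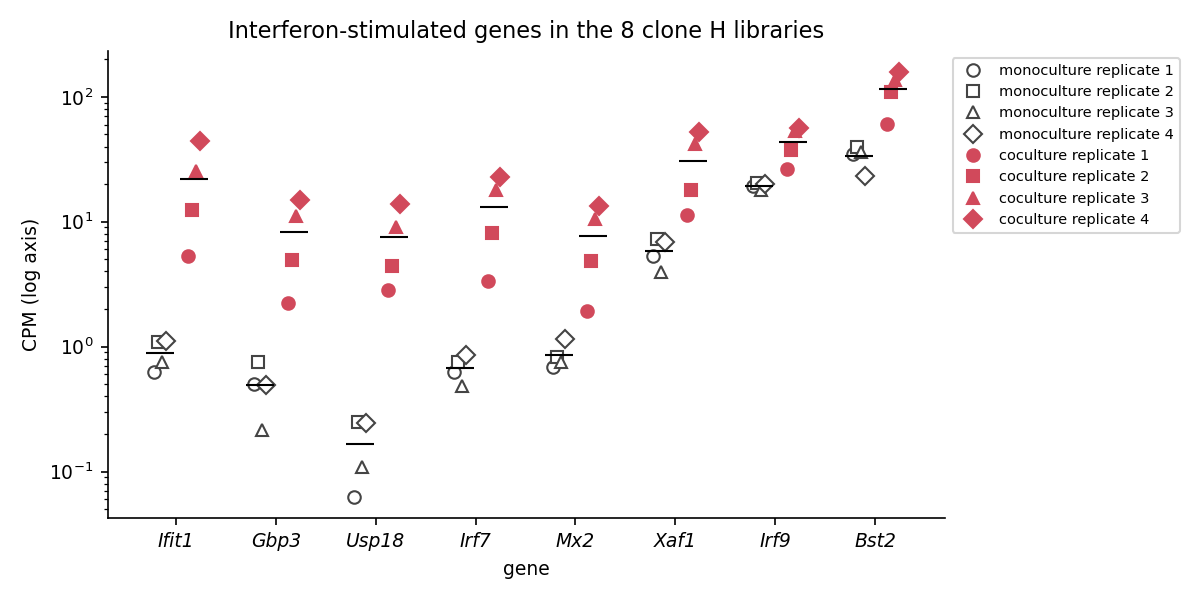
CPM (log axis) of 8 interferon-stimulated genes in the 8 clone H libraries, open symbols for monoculture and filled symbols for coculture, with the replicate number given by the symbol's shape and group means by bars. For each gene the 4 coculture values lie above the 4 monoculture values, and coculture replicate 1 is the lowest of the coculture values.

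The level reached, not only the change, was high in clone H. Over the 40 genes, the mean of log2(CPM + 1) was 2.30 to 2.41 in the 4 monoculture libraries and 2.96, 3.50, 4.21 and 4.50 in coculture. The other lines covered 1.85 to 2.85 in monoculture and 2.05 to 3.35 in coculture, so clone H was within their range before coculture and 3 of its 4 libraries were above all 28 of their libraries after it. Clone H had the highest coculture mean of the 8 lines for 28 of the 40 genes, against 7.84% of all genes tested. The fibroblast marker sum of these libraries, 30.9 to 96.5 CPM, was within the 14.6 to 155 CPM of the other lines. Within the 4 coculture libraries of clone H, the mean of the 40 genes, the fibroblast marker sum and Cd68 all ranked the libraries in the same order, 1, 2, 3 and 4 from low to high, and the epithelial sum in the opposite order (3176, 2140, 2036 and 1887 CPM). The part of fibroblast RNA in the level of these genes was not tested.

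**Figure D3:**
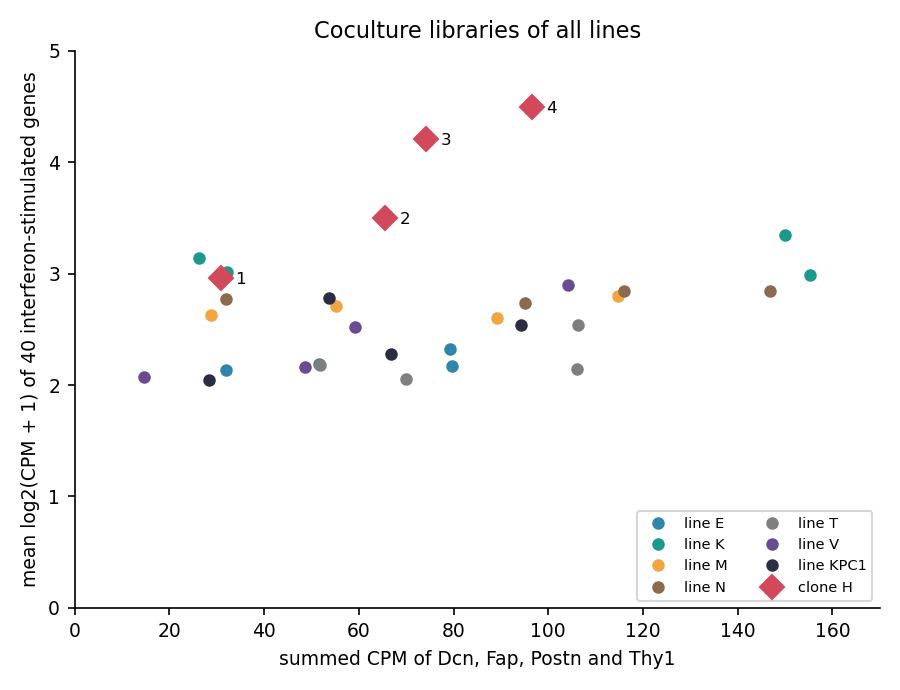
Mean log2(CPM + 1) of 40 interferon-stimulated genes (vertical axis) against the summed CPM of the fibroblast genes Dcn, Fap, Postn and Thy1 (horizontal axis) in the 32 coculture libraries, colored by line, with clone H as diamonds numbered by replicate. Clone H replicates 2, 3 and 4 lie above every library of the other lines, while their marker sums (65.6 to 96.5 CPM) lie inside the range of the others.

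The genes upstream of this list were examined after these results were known. Ifnar1, a receptor subunit, was at 168 ± 9.12 CPM in monoculture and 136 ± 8.60 CPM in coculture, and Ifnar2, its partner, at 44.4 ± 2.21 and 45.3 ± 1.07 CPM (SD, n = 4 each). The transcription factors Irf1 and Irf3 were at 61.2 ± 4.23 and 60.8 ± 10.6 CPM and at 15.2 ± 1.09 and 14.7 ± 1.54 CPM in the same order. None of these 4 was called, although Ifnar1 was lower by adjusted p alone (0.000355). No count of an interferon gene, alpha, beta, gamma or lambda, was found in a clone H library except 2 counts of Ifnz in monoculture.

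The promoters of 4 members of the interferon and stress lists are shown. The stretches before their starts hold the elements through which such genes are known to be switched on, where present. Windows were also drawn for Xaf1, Irf9, Slc3a2 and Ddit3, which held no match to any element named below. Those drawn for Vldlr and Ppp1r15a each held 1 response element match and no Atf4 core. The 4 shown all hold matches, so they do not stand for the named genes as a whole. Each line gives the 250 bases before the gene's start, 5′ to 3′ on the gene's strand, from RefSeq on GRCm38.p6: Ifih1 chr2:62646256-62646505 (minus), Ifit1 chr19:34640639-34640888 (plus), Bst2 chr8:71537473-71537722 (minus) and Nupr1 chr7:126625471-126625720 (minus). Capitals mark matches, on either strand, to the core of the interferon-stimulated response element (GAAANNGAA), to the gamma-activated site (TTCNNNGAA) or to the core of the element bound by Atf4 with C/EBP factors (TGATGNAA). Adjacent matches overlap in Ifit1 and Bst2 and are then capitalized as 1 run.
Ifih1: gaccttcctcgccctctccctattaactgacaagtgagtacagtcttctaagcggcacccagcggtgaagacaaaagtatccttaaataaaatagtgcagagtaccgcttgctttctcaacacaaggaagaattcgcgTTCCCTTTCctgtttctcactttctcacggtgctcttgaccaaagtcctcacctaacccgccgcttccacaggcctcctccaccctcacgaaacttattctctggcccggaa
Ifit1: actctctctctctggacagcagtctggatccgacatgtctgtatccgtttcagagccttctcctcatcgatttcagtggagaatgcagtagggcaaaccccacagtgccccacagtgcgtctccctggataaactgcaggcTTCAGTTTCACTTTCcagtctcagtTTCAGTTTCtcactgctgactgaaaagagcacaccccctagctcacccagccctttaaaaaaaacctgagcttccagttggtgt
Bst2: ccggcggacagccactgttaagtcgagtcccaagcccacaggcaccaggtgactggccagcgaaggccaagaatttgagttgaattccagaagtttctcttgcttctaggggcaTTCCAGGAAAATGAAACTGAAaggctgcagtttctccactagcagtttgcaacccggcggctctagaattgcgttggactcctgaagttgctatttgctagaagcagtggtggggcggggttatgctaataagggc
Nupr1: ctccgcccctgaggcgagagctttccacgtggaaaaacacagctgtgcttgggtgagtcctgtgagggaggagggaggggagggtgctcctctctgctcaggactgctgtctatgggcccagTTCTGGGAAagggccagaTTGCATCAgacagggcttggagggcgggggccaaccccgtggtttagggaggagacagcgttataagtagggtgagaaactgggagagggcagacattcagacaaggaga

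The first base of a response element match lay 112 bases before the start in Ifih1, 109, 103 and 84 before it in Ifit1, and 130 and 124 in Bst2. A gamma-activated site match began at 136 in Bst2 and at 128 in Nupr1, where the Atf4 core began at 110. Windows of 300 bases, from 250 before to 50 after the start, were matched for 29 of the 40 interferon-stimulated genes, and 18 of these held the response element core in at least 1 window, against 8.62% of the 9781 tested genes that matched and 8.56% of all 32851 single windows. The gamma-activated site was in 8 of the 29, against 8.30% of both the tested genes and the windows. For the integrated stress response, 28 of the 32 genes matched and 9 held the Atf4 core, against 2.77% of the tested genes and 3.97% of the windows. A match describes letters and does not show that a factor binds there. Usp18 had no entry.

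Antigen presentation and chemokines moved in part. Of 15 genes of MHC class I presentation, 6 rose and none fell (median 0.54 on the log2 scale, against 0.09 in the mean of the others). Over all genes tested, 5.79% rose and 5.38% fell. No difference from the other lines was called in this list. H2-D1, a class I heavy chain, went from 92.1, 95.9, 96.2 and 83.4 CPM to 134, 222, 241 and 263 CPM (2.34-fold, adjusted p = 1.11e-08), and H2-K1, another, from 41 ± 1.75 to 90.6 ± 21.7 CPM (SD, n = 4 each, adjusted p = 2.85e-06). Tap1, a subunit of the peptide transporter, rose from 0.186 ± 0.132 to 3.81 ± 2.21 CPM. Coculture replicate 1 was the lowest of the 4 for all 3. Cd74, the class II invariant chain, was a member of no list and had the difference of 2.30 ± 0.53 (adjusted p = 0.00221), from 0.378, 0.5, 0.432 and 0.733 CPM to 1.27, 5.85, 7.03 and 7.30 CPM.

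Of 17 chemokine ligands and receptors, 8 rose and 1 fell, where 5.79% and 5.38% of all genes tested did (median 1.11, against 0.92 in the mean of the others). Cxcl10, a chemokine induced by interferon that attracts T cells, rose from 0.183 to 0.865 CPM in monoculture to 1.69, 7.34, 17.2 and 16.5 CPM (log2 4.53 ± 0.54 SE, adjusted p = 6.8e-09). Ccl7, a monocyte chemokine, rose from 0.732 ± 0.484 to 4.14 ± 1.69 CPM (SD, n = 4 each). These were the 2 members with a larger response in clone H than in the mean of the others (1.83 ± 0.67 and 1.31 ± 0.43, adjusted p = 0.0757 and 0.0455), and both lost this call without monoculture replicate 1 or 4 or coculture replicate 3 or 4 (1.54 to 1.69 and 1.08 to 1.21), Cxcl10 also without monoculture replicate 2 (1.83). Ccl5, a chemokine that attracts T cells, rose from 0.749 ± 0.206 to 5.09 ± 2.49 CPM, without a called difference. Cd68, a lysosomal glycoprotein common in macrophages, rose from 6.04, 4.5, 4.87 and 2.93 CPM to 19.5, 37.3, 47.7 and 57.5 CPM (difference 2.00 ± 0.38, adjusted p = 0.000213), and the other 12 of the 13 immune markers listed had fewer than 10 counts each over the 4 coculture libraries.

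The integrated stress response was the second program that rose. Of 32 genes, 17 rose and none fell, and 27 were higher by adjusted p alone. Over all genes tested, 5.79% rose, 5.38% fell and 21.4% were higher by adjusted p alone. The median was 1.06 on the log2 scale, against 0.68 for the mean of the other lines and 1.79 in clone V. The response was higher in clone H than in the mean of the others for 5 genes, where 1.55% of all genes were, and lower for none. The 5 were Ddit3, Nupr1, Vldlr, Ppp1r15a and Fgf21.

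Ddit3, the stress transcription factor CHOP (chr10:127290774-127296288), was at 25.8, 26.6, 28.3 and 29.4 CPM in monoculture and at 86.8, 191, 205 and 187 CPM in coculture. The 4 monoculture libraries agreed closely and all coculture libraries were above them, with replicate 1 well below the other three. It rose 6.08-fold (log2 2.60 ± 0.31 SE, adjusted p = 6.8e-09), by 1.45 ± 0.32 more than the mean of the others (adjusted p = 0.00151). Clone V rose further, from 21.2 to 203 CPM, and KPC1 went from 86.0 to 305 CPM, so this difference was not particular to clone H, and it was lost when clones E and V alone formed the comparison (0.34).

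Nupr1, a small stress-induced chromatin protein whose promoter is shown above, went from 70.8, 56.6, 88.7 and 76.1 CPM to 184, 398, 358 and 419 CPM (4.65-fold, adjusted p = 2.19e-09), with a difference of 1.35 ± 0.26 (adjusted p = 0.000272). On the log2 scale Nupr1 also rose by 1.986 in clone V and by 1.835 in clone T, and the lowest response was -0.22 in clone K. Vldlr, a lipoprotein receptor, went from 46.9 ± 7.54 to 141 ± 19.2 CPM (difference 1.36 ± 0.24, adjusted p = 7.77e-05) while it fell in clone M and rose by more in clone V (log2 1.97, against 1.58 in clone H). Ppp1r15a, the phosphatase subunit that ends the response, went from 32.6 ± 10.4 to 114 ± 50.7 CPM (SD, n = 4 each, difference 1.03 ± 0.34, adjusted p = 0.0432), a difference that fell below 2-fold without monoculture replicate 2 (0.95) or coculture replicate 3 (0.73). On the log2 scale it rose by 1.80 in clone H, by 1.72 in clone T and by 2.55 in clone V. Fgf21, a stress hormone, was at 0 in all 4 monoculture libraries and at 0.121 to 0.453 CPM in coculture, at least 1.59-fold higher against a floor of 3 counts per library.

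Amino acid genes of the same response rose without a called difference from the other lines. Slc3a2, the shared heavy chain of amino acid exchangers, went from 156, 190, 194 and 162 CPM to 340, 435, 418 and 343 CPM (2.19-fold, adjusted p = 5.04e-09), and its difference of 0.74 ± 0.14 was below 2-fold. Slc1a5, a glutamine transporter, went from 49 ± 6.08 to 115 ± 16.3 CPM (2.34-fold, adjusted p = 2.64e-07). Trib3, Asns and Chac1, chosen after their values were seen as familiar Atf4 targets, rose to 208 ± 42.1, 400 ± 42.2 and 74.9 ± 19.1 CPM from 51.4 ± 7.63, 156 ± 28.9 and 19.4 ± 3.67 CPM, with differences of 0.61, 0.06 and 0.50. Atf4 itself was at 424 ± 34.9 CPM in monoculture and 747 ± 87.8 CPM in coculture, a 1.76-fold change.

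**Figure D4:**
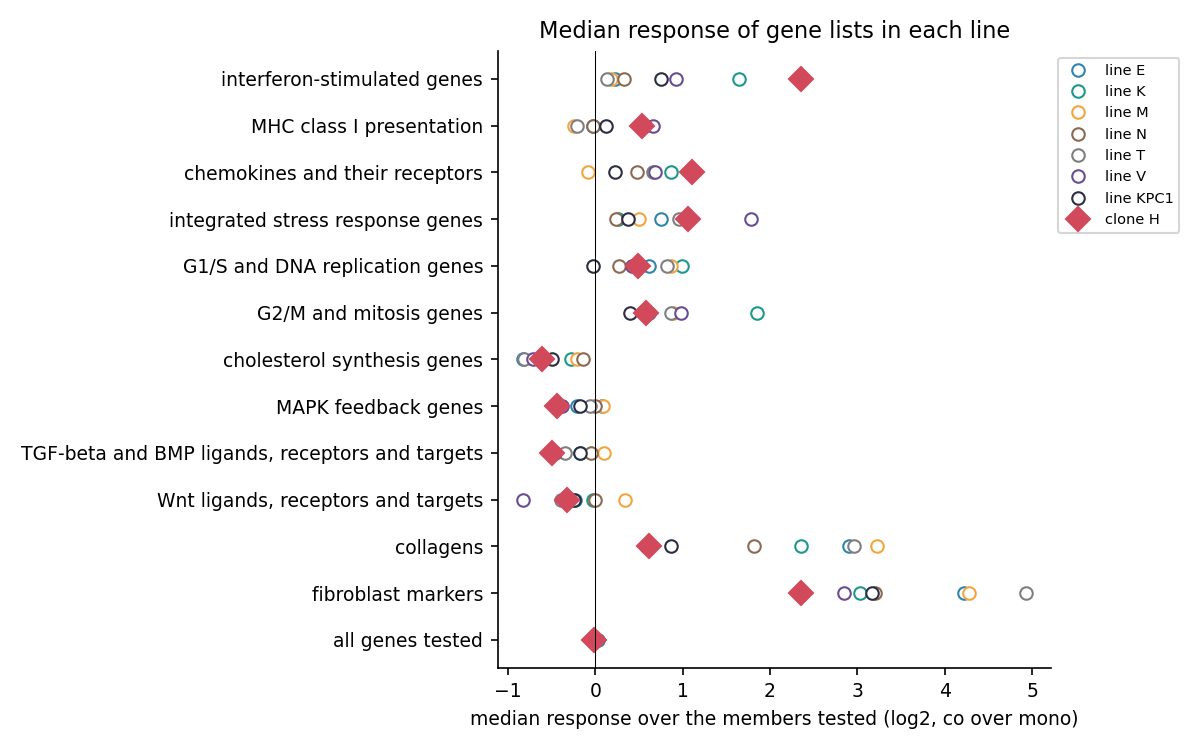
Median response over the tested members of 12 gene lists and over all genes tested (horizontal axis, log2 of coculture over monoculture), with clone H as filled diamonds and the other 7 lines as open circles. Clone H has the highest median for interferon-stimulated genes (2.36) and the lowest for fibroblast markers (2.36, against 2.85 to 4.92), and lies near the low end for collagens (0.62, where clone V has 0.58).

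Collagens and fibroblast markers had lower median responses in clone H than in the mean of the others, with the difference called in fewer members than not, and clone V had a lower median still for collagens (0.58). Of 17 fibroblast markers, 11 rose, 1 fell and none had a higher response, while 4 had a lower one (median 2.36, against 3.34 in the mean of the others). Of 20 collagens, 8 rose, none fell, and 9 had a lower response (median 0.62, against 2.53). Of 26 matrix proteases and inhibitors, 5 rose, 2 fell and 3 had a lower response (median 0.19, against 0.53). Over all genes tested, 5.79% rose, 5.38% fell and 2.75% had a lower response.

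Col5a2, a fibrillar collagen chain, went from 0, 0.167, 0 and 0.183 CPM to 51.4, 120, 130 and 131 CPM. Col1a2, a chain of type I collagen, went from 0.631 ± 0.376 to 220 ± 72.0 CPM and Col6a3, a chain of type VI, from 0.856 ± 0.268 to 84.9 ± 27.2 CPM (SD, n = 4 each). Postn, an adhesion protein of the matrix, was at 0 in all 4 monoculture libraries and at least 232-fold higher in coculture (45.4 CPM on average), and the membrane protein Thy1 at least 73.1-fold higher (14.3 CPM). Ptn, a heparin-binding growth factor, was at least 194-fold and Ptx3, a pentraxin, at least 51.7-fold higher, both from 0. Acta2, smooth muscle actin, rose from 2 counts over the 4 libraries to 26.9 ± 11.7 CPM.

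Fbn1, a microfibril protein, and Bgn, a matrix proteoglycan, were among the largest rises of genes already expressed in monoculture. Fbn1 went from 4.72, 9.91, 3.03 and 4.28 CPM to 33.2, 62.1, 58.8 and 61.6 CPM (10.1-fold, adjusted p = 7.95e-07), and Bgn from 25.8 ± 4.89 to 233 ± 72.4 CPM (9.05-fold, adjusted p = 1.13e-08). Col1a1, the other type I chain, went from 34.9, 35.1, 26.6 and 29.8 CPM to 185, 327, 331 and 410 CPM (9.93-fold), and the rise was smaller than the mean of the others by 1.59 ± 0.44 on the log2 scale (adjusted p = 0.0135). Clone H monoculture had 31.6 CPM of Col1a1, level with clone V (31.5) and above the other lines (from 2.65), while its coculture level of 313 CPM was within their 172 to 340 CPM. Prrx1, a mesenchymal transcription factor, was at 92.0 ± 7.84 CPM in monoculture and 87.1 ± 12.5 CPM in coculture, a response 1.55 ± 0.24 below the mean of the others, which started at 1.23 to 64.7 CPM.

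Thbd, the thrombin receptor thrombomodulin, and Edn1, the vasoconstrictor endothelin-1, were among the 10 largest rises. Thbd went from 5.86, 6.08, 7.84 and 6.48 CPM to 32.4, 56.3, 76.8 and 48.1 CPM (8.10-fold, adjusted p = 2.1e-09), and Edn1 from 6.85 ± 1.85 to 40.1 ± 17.6 CPM (5.89-fold, adjusted p = 1.93e-05). Grem1, a secreted BMP antagonist, went from 9.13, 6.66, 6.38 and 4.71 CPM to 29.2, 38.4, 52.8 and 36.1 CPM (5.82-fold, adjusted p = 1.73e-09). Its difference from the mean of the others was 2.39 ± 0.30 (adjusted p = 7.62e-08), but it rose more in clone V, from 3.74 to 56.4 CPM, and its coculture level was below that of every other line except clone M. Ptgs2, the inducible cyclooxygenase, went from 53.3 ± 18.9 to 275 ± 122 CPM (5.14-fold, adjusted p = 0.00056), and the values of the 2 groups did not overlap.

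Lgr5, Tbx2, Stra6, Kcnh1 and Atoh8 were among the 10 largest falls of genes expressed in monoculture. Lgr5, a receptor for R-spondins and a stem cell marker of several epithelia (chr10:115450311-115587780), was at 29.1, 37.4, 33.1 and 54.7 CPM in monoculture and 4.53, 1.37, 0.793 and 1.43 CPM in coculture. Coculture replicate 1 kept more Lgr5 than the other three, and the groups did not overlap. It fell 19.1-fold (log2 -4.26 ± 0.53 SE, adjusted p = 2.16e-08), and clone V fell by more, from 92.4 to 3.57 CPM. Tbx2, a transcription factor of development, went from 43.7, 34.5, 49.1 and 43.5 CPM to 13.6, 3.16, 3.97 and 3.37 CPM (7.13-fold lower, adjusted p = 3.7e-06). Stra6, a retinol transporter, fell 16.7-fold and Kcnh1, a potassium channel, 12-fold, the latter from 24.2 ± 7.68 to 2.05 ± 3.02 CPM. Atoh8, a helix-loop-helix factor, fell 5.55-fold, with the mean of the other lines falling by as much (difference 0.23).

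Of 31 Wnt ligands, receptors and targets, 5 rose and 7 fell, where 5.79% and 5.38% of all genes tested did (median -0.32, against -0.15 in the mean of the others). The response was lower than in the mean of the others for 7 and higher for 1, where 2.75% and 1.55% of all genes were. Axin2, a feedback inhibitor induced by Wnt signals, fell from 3.09 ± 0.564 to 0.685 ± 0.214 CPM (4.46-fold, adjusted p = 0.000132). Fzd1, a Wnt receptor, fell from 71.6 ± 16.2 to 29.4 ± 4.85 CPM (2.44-fold, adjusted p = 6.31e-05). Wnt5a, a noncanonical ligand, was at 29.1 ± 3.31 CPM in monoculture and 16 ± 2.28 CPM in coculture, a change under 2-fold, and its response was 1.67 ± 0.30 below the mean of the others. Clone V moved alongside clone H in Lgr5, Axin2, Fzd1 and Wnt5a, with values of -4.69, -3, -1.64 and -0.83 on the log2 scale.

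Some called differences came with different starting levels. Among the 219 genes with a higher response in clone H, its monoculture level was below that of every other line for 84 (38.4%, against 8.24% of all genes tested). Among the 388 with a lower response, it was above every other line for 157 (40.5%, against 9.22%). Monoculture libraries enter both the level and the response, so these are a description. Clone H itself was not called in 84 of the 219 and 243 of the 388. Not called does not mean unchanged: Wnt5a, among those with a lower response, was lower in clone H by adjusted p alone.

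Pdlim1, an actin-associated protein, rose in clone H from 0.399 ± 0.261 to 6.61 ± 2.21 CPM (log2 4.13 ± 0.40 SE, difference 3.62 ± 0.42, adjusted p = 1.38e-08), while it fell from 28.4 to 9.92 CPM in clone E and rose from 0.407 to 6.57 CPM in KPC1. Arhgap29, a GTPase-activating protein, rose from 1.76, 1.67, 0.757 and 1.22 CPM to 6.52, 11.6, 10.4 and 7.87 CPM in clone H, while clones E, M and T fell from 111, 38.2 and 31.8 CPM to 35, 10.9 and 10.7 CPM. It also rose in KPC1 (log2 1.87, adjusted p = 6.63e-06), and its response in clone V was 0.03. In both, clone H started below most lines and ended within the range of the others.

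The genes with the most negative difference were mostly expressed by clone H in both cultures. Creb3l1, a membrane-bound transcription factor, was at 28, 23.6, 24.3 and 16.9 CPM in monoculture and 33.9, 24.7, 20.3 and 18.7 CPM in coculture, with overlapping groups. In the other lines it stood at 0 to 8.39 CPM before and 3.65 to 13.4 CPM after coculture. Flrt2, an adhesion protein, was at 183 ± 6.02 CPM in monoculture and 153 ± 6.98 CPM in coculture, while it rose in clones E, K, M, N and T to 3.23 to 16 CPM. Bicc1, an RNA-binding protein, was at 10.8 ± 1.25 and 11.1 ± 1.35 CPM (SD, n = 4 each). The 3 differences of -3.78 ± 0.43, -3.19 ± 0.37 and -4.46 ± 0.56 came from rises in other lines, most from values near 0, where the fitted fold depends on the prior count.

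Capn6, a calpain family member without protease activity, and Kctd17, an adaptor of a ubiquitin ligase, fell in clone H. Capn6 went from 20.2, 24.1, 25 and 18.6 CPM to 13.9, 12.4, 8.39 and 7.30 CPM (log2 -1.07 ± 0.33 SE, adjusted p = 0.00796), and Kctd17 from 13 ± 2.73 to 5.10 ± 1.3 CPM (log2 -1.34 ± 0.34 SE, adjusted p = 0.0018). Capn6 also fell in clone V (log2 -0.88, adjusted p = 0.0342), while it rose in clones E, K, M, N and T and in KPC1. The other lines stood at 0.875 to 2.54 CPM of Capn6 in coculture, all below clone H. Vipr1, a receptor for vasoactive intestinal peptide, was at 6.05 ± 1.70 and 3.41 ± 0.95 CPM in clone H and at most 0.698 CPM in the coculture of any other line. Fez1, a transport adaptor, rose in clone H and in all 7 others, and its difference of -3.04 rested on values near 0 in monoculture, was not called without monoculture replicate 4 (-2.36) and was positive on the RPKM scale (0.35).

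**Figure D5:**
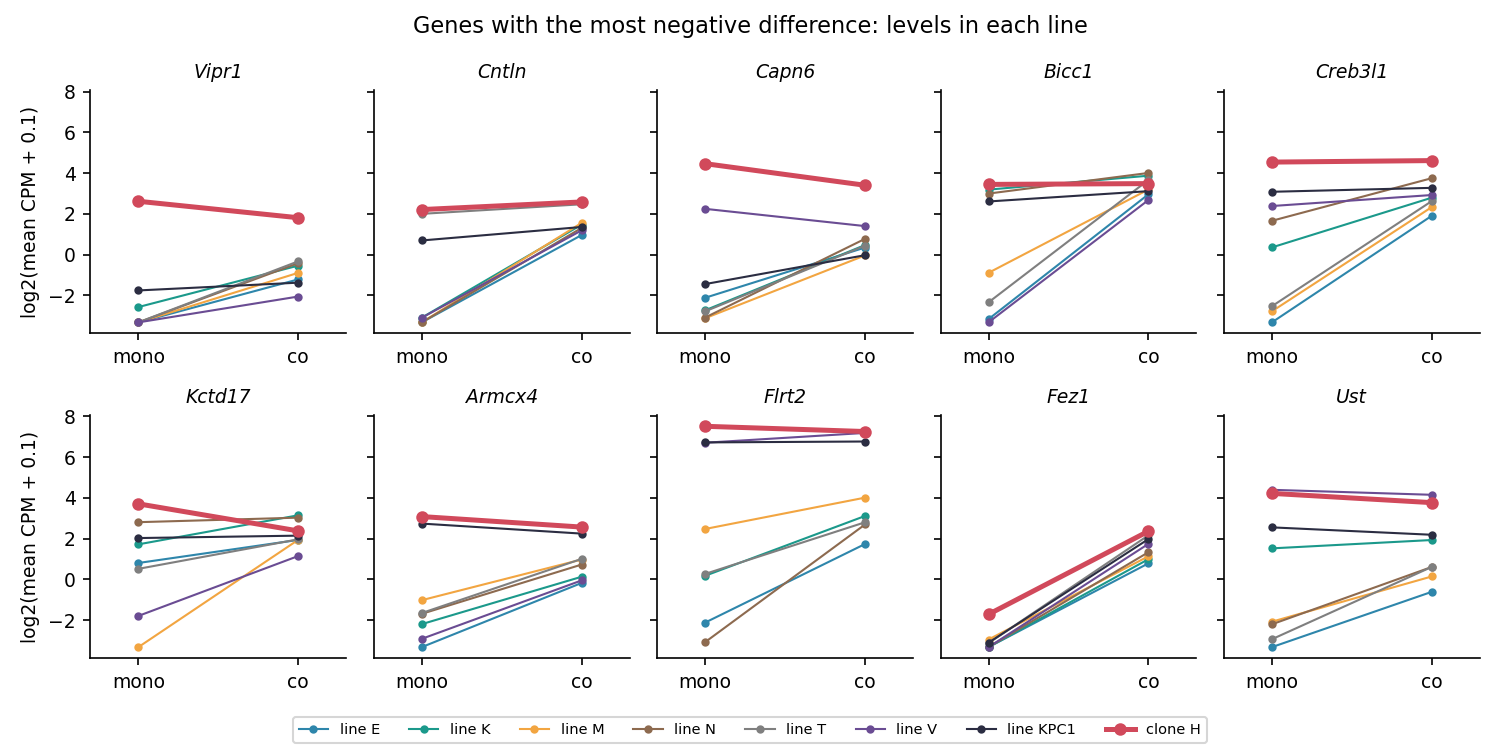
Mean level of the 10 genes with the most negative difference in each line, on a log2(mean CPM + 0.1) scale, from monoculture (left) to coculture (right), with clone H as the thick red line. Clone H starts highest for each gene but Ust, where clone V is higher, and most other lines climb from low levels. Fez1 climbs in all 8 lines.

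No difference from the mean of the other lines was called in the lists of cholesterol synthesis, cell cycle or MAPK feedback genes, although their medians varied between lines. Of 24 cholesterol synthesis genes, 3 fell and 19 were lower by adjusted p alone, with a median of -0.61 on the log2 scale against -0.51 in the mean of the others, and over all genes 5.38% fell and 22.6% were lower. Mvk, mevalonate kinase, fell from 41.7, 52.4, 47.7 and 56.4 CPM to 29.1, 19.4, 18.6 and 18.9 CPM (2.30-fold, adjusted p = 0.000162), and Hsd17b7, a later enzyme of the pathway, from 121 ± 11.8 to 55.5 ± 9.09 CPM (2.17-fold, adjusted p = 0.000935). Of 30 genes of the G1/S transition and DNA replication, 5 rose and none fell (median 0.49, against 0.58). Of 30 mitotic genes, 1 rose and none fell (median 0.58, against 0.89), a smaller share than the 5.79% of all genes that rose. By adjusted p alone, 18 genes of each list were higher, where 21.4% of all genes were. In the other lines the number of mitotic genes that rose went from 0 in clone N and KPC1 to 26 in clone K, where the median was 1.85. Cdt1, a licensing factor of replication origins, rose from 34.3, 32.7, 29.5 and 26 CPM to 59.7, 85.6, 86.6 and 81.4 CPM (2.56-fold, adjusted p = 8.54e-08), and Ccne1, cyclin E1, from 2.81 ± 1.13 to 8.58 ± 1.33 CPM (3.10-fold, adjusted p = 8.44e-07). None of the 18 feedback genes of the MAPK pathway passed both conditions, and 9 were lower by adjusted p alone, with a median of -0.43 that was the lowest of the 8 lines (mean of the others -0.04).

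A few genes outside these programs differed. Snai2, a transcription factor of epithelial-mesenchymal transition, rose from 8.94, 9.33, 9.24 and 9.78 CPM to 26, 34.4, 54.7 and 41 CPM (4.19-fold, adjusted p = 2.54e-09), by 1.11 ± 0.25 more than the mean of the others (adjusted p = 0.00188), while the related Snai1 was at 20.8 ± 5.13 and 15.6 ± 2.20 CPM, a response 1.37 ± 0.24 below them. Hmox1, which degrades heme, rose from 12.6 ± 2.03 to 52.5 ± 13.1 CPM (difference 1.33 ± 0.30, adjusted p = 0.00188), and on the log2 scale by 2.07, against 2.19 in clone V and 1.59 in clone T. Igfbp4, a binding protein of insulin-like growth factors, fell from 2816, 3668, 2852 and 3387 CPM to 2117, 1517, 1353 and 1177 CPM (2.06-fold, adjusted p = 3.35e-07), by 1.01 ± 0.16 more than the mean of the others. Mmp2, a gelatinase, was at 76.2 ± 8.65 CPM in monoculture and 67.0 ± 11.4 CPM in coculture, while it stood at 0 to 0.411 CPM in the monocultures of E, K, M, N and T and at 5.46 to 8.85 CPM in their cocultures.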

How the data were processed

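Poly(A) RNA of tumor cells was made into strand-specific libraries and sequenced with paired 76-base reads. The submitters' processing notes name the build mm10 and the tools featureCounts and edgeR. Aligner, annotation, strand setting and versions are not given in the sources used here. The deposited count table holds the authors' raw counts for 39017 genes in 64 libraries, and the deposited RPKM table holds RPKM values for the same libraries, used here only as an alternative. Counts were fitted with edgeR's quasi-likelihood test (version 4.0.16) in R 4.3.3, with TMM scaling, filterByExpr, 14134 genes tested and 1 mean for each of the 16 groups of line and culture, which leaves 48 residual degrees of freedom. The contrasts were coculture minus monoculture in clone H, and that value minus the mean of the other 7 lines. Genes were called at a Benjamini-Hochberg adjusted p below 0.1 and an absolute log2 value of 1 or more. Genes changed in clone H alone also had all 7 pairwise differences at an adjusted p below 0.1 in the same direction and no such call in another line. CPM are TMM-scaled, errors are SD over 4 libraries or SE of the fit, and the floor of 3 counts per library covers counting error only. Scripts were tested on simulated data.

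Named genes were the 10 largest rises and 10 largest falls with 5 CPM or more in monoculture and non-overlapping groups, the 5 largest rises from below 1 CPM, the 10 largest differences in each direction with 5 CPM or more and a response outside the range of the other lines, genes changed in clone H alone with 5 CPM or more, and up to 4 members of each of 39 lists, by smallest p. For other genes the text says that they were picked with their values in view, and cell type markers needed no such rule. Clone H and the gene lists were chosen with earlier results of these data known. Gene positions are from GENCODE M21 on GRCm38, and promoters from RefSeq on GRCm38.p6. The alternatives were DESeq2 (version 1.42.0), RLE scaling, no filter, the clone H libraries alone, other thresholds, limma (version 3.58.1) on log2(RPKM + 1) and log2(RPKM + 0.1), the library numbering series, the replicate number, a fibroblast marker covariate, and leaving out each library of clone H or each other line. Since the strand setting of the counting is not known here, overlapping genes could share reads. Some items are not reported here.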

Additional observations from a re-analysis of the deposited data

Results flagged for a closer look

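Of 96 groups of 4 values examined, 9 held a value far from the other three, and all 9 were coculture replicate 1 of clone H. Chance gives such a value in about 1 of 20 independent groups. These groups share the same libraries and mostly hold genes chosen for large changes, so 9 of 96 cannot be set against that rate. In these 9, replicate 1 stood at 33.2 CPM for Fbn1, 86.8 for Ddit3, 70.9 for Col6a2, a chain of type VI collagen, and 51.4 for Col5a2, each the lowest of its group, and at 4.53 for Lgr5, 6.58 for Kcnh1, 13.6 for Tbx2, 3.02 for Agt, which encodes angiotensinogen, and 4.83 for Vipr1, each the highest.

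The response of clone H differed from the mean of the other 7 lines, by a test of the difference itself, in 219 genes with a higher and 388 with a lower response. The named higher differences were 4.28 for Ifih1, 3.62 for Pdlim1, 3.47 for Arhgap29, 2.90 for Gbp3, 2.67 for Usp18, 2.62 for Irf7, 2.54 for Xaf1, 2.38 for Mx2 and 2.30 for Cd74 on the log2 scale. The 10 lower were -5.37 for Vipr1, -5.20 for Cntln, -4.50 for Capn6, -4.46 for Bicc1, -3.78 for Creb3l1, -3.75 for Kctd17, -3.64 for Armcx4, -3.19 for Flrt2, -3.04 for Fez1 and -2.96 for Ust.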

How the results depend on the processing

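Of the values of named genes under the alternatives, 2170 of the response kept direction and an adjusted p below 0.1. Another 31 lost that adjusted p and 2 changed sign, and for the difference the numbers were 1904, 93 and 3. The condition of a 2-fold change was not part of these counts. Those that changed sign did so under limma on RPKM: mt-Nd6 (response 0.40 and 0.41 with pseudocounts of 1 and 0.1), Fez1 (difference 0.35 and 0.41) and Pmaip1 (difference -0.077 with a pseudocount of 1), and the cause was not tested. By adjusted p alone, 3027 genes rose and 3188 fell, with 815 higher and 1057 lower differences. Testing against a 2-fold change (glmTreat) gave 394 and 98, with 26 and 92 differences, 7 of them higher in interferon-stimulated genes. Limma on log2(RPKM + 1) gave 226 and 108, with 84 and 43 differences, 16 interferon-stimulated genes risen and 13 with a higher response, and log2(RPKM + 0.1) gave 390 falls and 206 lower differences. The 8 clone H libraries alone gave 503 falls, and clones E and V as the comparison 341 higher differences. Leaving out 1 clone H library gave 760 to 952 rises, 595 to 989 falls, 149 to 263 higher and 326 to 482 lower differences, 28 to 32 interferon-stimulated genes risen, 14 to 21 with a higher response, 2 to 5 rises and 0 to 1 falls in clone H alone. DESeq2 gave 824 and 757, with 267 and 371. With the replicate block, 814 rose and 779 fell, with 239 and 417 differences and 29 and 20 interferon-stimulated genes. Libraries with the same number correlated in their deviations at r = 0.0037 to 0.10 in clone H, at 0.23 to 0.29 in clone N and above 0.1 in 18 of 32 pairs over the 8 lines. Of the 32, 24 correlated best with their own number. The library titles also give monoculture and coculture of a replicate neighboring numbers, but no source used here states a pairing. The correlation was not above 0.1 for every pair, so the fit without the block was kept, and a pairing remains possible. A fibroblast marker covariate was applied to the response after the data were seen. It was 0 in monoculture and centered over all coculture libraries, so it could take up little of the change from monoculture to coculture. With it, 812 of the 818 rises and 215 of the 219 higher differences stayed called. By this construction, the counts do not separate fibroblast RNA from a change in tumor cells. Low counts limit the folds of genes near 0 in monoculture.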
